A study of Mus musculus with 8 samples.

Results

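The Hedgehog pathway genes described here are Ihh, Ptch1, Boc, Smo, Sufu, Gli1, Gli2, Gli3 and Hhip, 9 of the 17068 genes in the deposited expression table, chosen by gene symbol. Their transcripts were measured by RNA-seq in the bone-forming cells of the skeleton, osteoblastic cells (OBCs), which were sorted from collagenase-digested long bones. The mice were C57BL/6J females aged about 10 weeks, and 4 libraries came from animals with BCR-ABL+ B-cell acute lymphoblastic leukemia (leukemic) and 4 from healthy mice (control). The labels do not name the cells injected or the stage of the disease, nor the surface markers of the sort, and they do not say whether each library came from its own animal. The p-values below therefore measure the spread between these libraries, which may be technical.

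Hedgehog ligands are secreted proteins that bind Ptch1, a receptor that otherwise holds the membrane protein Smo inactive. Released Smo acts in the primary cilium, where it relieves the hold of Sufu on the Gli transcription factors, so that Gli2 and Gli3 are no longer cut into repressors and Gli target genes are transcribed. Gli1, Ptch1 and Hhip are themselves targets, which makes them common readouts of the pathway. In the growing skeleton Ihh is made mainly by prehypertrophic chondrocytes of the growth plate, where it controls chondrocyte maturation and is required for osteoblast formation in the adjoining bone.

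The promoter windows of Ptch1 and Hhip, the target genes, of Gli2, which was lowest in the same control library as Boc, and of Gli3, whose libraries did not overlap between the groups, are shown from RefSeq on GRCm38.p6. Each window runs from 250 bases before the transcript start used in the table of promoters to 50 bases after it, 5′ to 3′ on the strand of the gene. For Gli3 that start is the outer end of the RefSeq gene span, while for Hhip, Gli2 and Ptch1 it lies 52, 786 and 7725 bases inside the span, so that upstream starts of these genes are not covered. Capitals mark GGGTGG or its reverse complement CCACCC, the core of the Gli binding motif. The Ptch1 window is chr13:63565686-63565985 on the minus strand and that of Hhip is chr8:80057959-80058258 on the minus strand. The Gli2 window is chr1:119053570-119053869 on the minus strand and that of Gli3 is chr13:15463473-15463772 on the plus strand.
Ptch1: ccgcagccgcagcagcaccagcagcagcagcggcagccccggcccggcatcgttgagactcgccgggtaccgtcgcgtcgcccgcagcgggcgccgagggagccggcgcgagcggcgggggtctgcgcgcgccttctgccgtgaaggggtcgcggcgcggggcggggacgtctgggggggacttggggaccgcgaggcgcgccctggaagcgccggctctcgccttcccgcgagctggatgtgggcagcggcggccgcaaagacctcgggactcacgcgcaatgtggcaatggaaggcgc
Hhip: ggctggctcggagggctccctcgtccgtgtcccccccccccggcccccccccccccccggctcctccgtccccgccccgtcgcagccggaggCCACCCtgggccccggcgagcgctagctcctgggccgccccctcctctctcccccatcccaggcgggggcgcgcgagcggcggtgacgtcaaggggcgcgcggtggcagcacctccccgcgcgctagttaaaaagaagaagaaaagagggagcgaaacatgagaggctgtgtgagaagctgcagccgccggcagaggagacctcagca
Gli2: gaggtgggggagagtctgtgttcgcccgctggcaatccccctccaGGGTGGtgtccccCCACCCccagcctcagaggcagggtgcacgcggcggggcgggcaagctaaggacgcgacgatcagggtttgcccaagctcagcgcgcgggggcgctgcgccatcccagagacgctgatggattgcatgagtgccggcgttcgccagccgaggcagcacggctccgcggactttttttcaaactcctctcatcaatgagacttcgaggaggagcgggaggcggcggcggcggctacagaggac
Gli3: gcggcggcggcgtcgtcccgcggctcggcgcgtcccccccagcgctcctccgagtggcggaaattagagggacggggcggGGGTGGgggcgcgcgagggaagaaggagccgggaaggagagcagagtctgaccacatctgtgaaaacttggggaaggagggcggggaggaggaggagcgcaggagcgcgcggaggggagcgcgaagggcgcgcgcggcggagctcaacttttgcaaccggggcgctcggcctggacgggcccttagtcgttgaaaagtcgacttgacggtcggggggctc
The table of promoters held 7 of the 9 genes, without Boc and Gli1. The full Gli motif TGGGTGGTC, searched on both strands, was in 0 of these 7 windows and in 0.253% of all 32851 windows of the same length. The core, which every full motif contains, was in 5 of the 7 (1 match each in Smo, Gli3 and Hhip, 2 each in Ihh and Gli2) and in 31.5% of all windows. The windows were rich in G and C, with 76.3% in Ptch1, 73.7% in Hhip, 67.3% in Gli2 and 71.0% in Gli3. GGGTGG is mostly G, and the set of all windows was not matched to these on base content. The shares with the core therefore do not measure enrichment beyond base content. A match is a run of letters and not a measured binding site, and the windows hold no distal enhancers.

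Expression was given by the authors as FPKM, fragments scaled to transcript length and library total, which is meant to make genes of different length comparable. Libraries still differed in their trend over transcript length, from a Spearman correlation of -0.332 (leukemic library 1) to 0.324 (control library 4). All 9 genes were expressed. They reached at least 1 FPKM in at least 3 libraries of each group, so all 9 passed the filter of 1 FPKM in 4 of the 8 libraries without depending on either group. On the FPKM scale the order of mean levels over the 8 libraries was Boc (49.5), Hhip (44.9), Smo (18.8), Ptch1 (10.6), Sufu (6.22), Ihh (4.39), Gli1 (3.70), Gli3 (3.58) and Gli2 (2.14). Boc ranked 1446 and Hhip 1607 of the 17068 genes by mean FPKM, while Gli2 ranked 9616. Boc, Hhip, Smo and Ptch1, which act at the cell surface, had higher means than the 3 Gli transcription factors.

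Neighbours in this order were compared by their paired difference in log2(FPKM + 1) with a two-sided exact sign-flip permutation test over the 8 libraries, adjusted over the 8 neighbouring pairs. The order that set the pairs came from the same 8 libraries. The test also cannot see a bias of a gene's level that all libraries share, so it describes FPKM values and not transcript numbers. Hhip lay above Smo, and Smo above Ptch1, in 8 of 8 libraries each, with paired mean differences of 1.15 and 0.77 (exact permutation p = 0.00781 each, the smallest this design allows; adjusted p = 0.0312). Ptch1 lay above Sufu in 7 of 8 libraries by a mean of 0.67 (exact permutation p = 0.0234, adjusted p = 0.0468), and Gli3 above Gli2 in 7 of 8 by 0.57 (exact permutation p = 0.0156, adjusted p = 0.0416). The remaining neighbours did not differ beyond their spread. Boc exceeded Hhip in 5 of 8 libraries, Sufu exceeded Ihh in 6 of 8, Ihh exceeded Gli1 in 5 of 8, and Gli1 exceeded Gli3 in 4 of 8, with adjusted exact permutation p-values from 0.237 to 0.867.

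**Figure D1:**
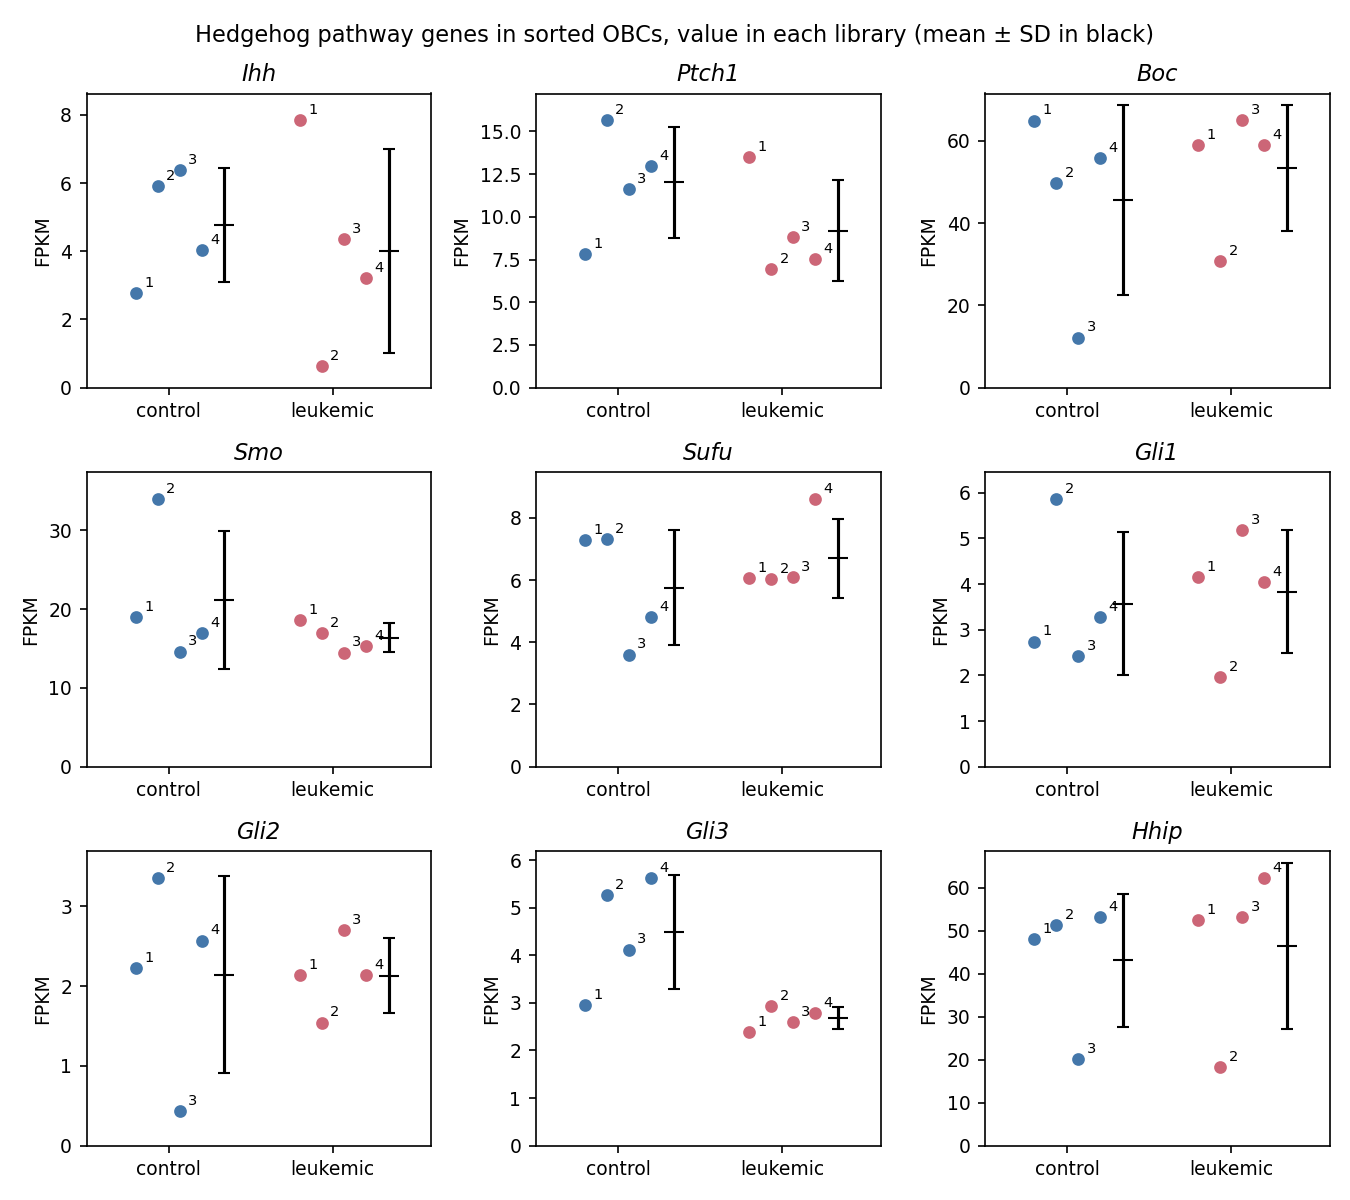
FPKM of each gene (y axis, from 0) in the 4 control and 4 leukemic libraries, 1 point per library with its replicate number, and the mean ± SD of the group in black. The groups overlap in 8 of the 9 genes, and in Gli3 the highest leukemic point (2.93) lies just under the lowest control point (2.96).

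Between leukemic and control OBCs, 0 of the 9 genes passed the threshold of an adjusted p of 0.05 (limma on log2(FPKM + 1), Benjamini-Hochberg adjustment over 11214 genes tested), where 0.0% of all genes tested were called higher and 0.0% lower. The adjusted p-values of the 9 genes ran from 0.695 to 0.98. Leukemic minus control differences were positive in 5 genes and negative in 4, with a median of 0.07 on the log2(FPKM + 1) scale. Over all genes tested 46.4% were positive and the median was -0.03. At an unadjusted limma p of 0.05, 1 of the 9 genes lay below it, Gli3, in the lower direction, in which 4.13% of all genes tested did. Higher genes at that level made up 2.49% of all genes tested and 0 of the 9.

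The ligand Ihh had the widest fold range of the 9 genes. It had values of 7.84, 0.63, 4.35 and 3.21 FPKM in leukemic libraries 1 to 4, against 2.77, 5.90, 6.37 and 4.03 FPKM in controls 1 to 4. The leukemic group held the highest and the lowest of the 8 values, which differed 12.4-fold, and the control values lay between them. The means were 4.01 ± 2.99 and 4.77 ± 1.67 FPKM (SD, n = 4 each), a log2 difference of -0.39 with a 95% interval from -1.40 to 0.62 (limma adjusted p = 0.841). Without leukemic library 2 the difference was 0.07, and without leukemic library 1 it was -0.75. The interval allows a decrease of over 1 on the log2 scale as well as an increase.

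The libraries with the lowest and the highest Ihh were also those with the lowest and the highest summed level of cartilage markers, while the other 6 did not follow that order. Chondrocyte transcripts were abundant in cells labelled as osteoblastic: Col2a1, the main cartilage collagen, ran from 1797 to 10941 FPKM in leukemic and from 5004 to 7585 FPKM in control libraries. All 12 chondrocyte markers were above 0 in every library, and their summed FPKM ran from 4820 to 19300 in leukemic and from 10300 to 14100 in control libraries. Leukemic library 2, with the lowest Ihh, was the lowest of the 8 libraries in 10 of the 12 markers. Leukemic library 1, with the highest Ihh, was the highest in 6 of the 12. Control library 3 had the next highest Ihh (6.37 FPKM) with a marker sum of 11000 FPKM, and leukemic library 4 had 3.21 FPKM of Ihh with a sum of 13000 FPKM. The osteoblast markers were also abundant, with Col1a1, the main bone collagen, from 3228 to 10300 FPKM over the 8 libraries and Sp7, an osteoblast transcription factor, from 30.2 to 69.8 FPKM. In RNA from many cells, fewer cells of a type and less RNA per cell cannot be told apart, and the part of cartilage cells in the Ihh values was not tested.

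**Figure D2:**
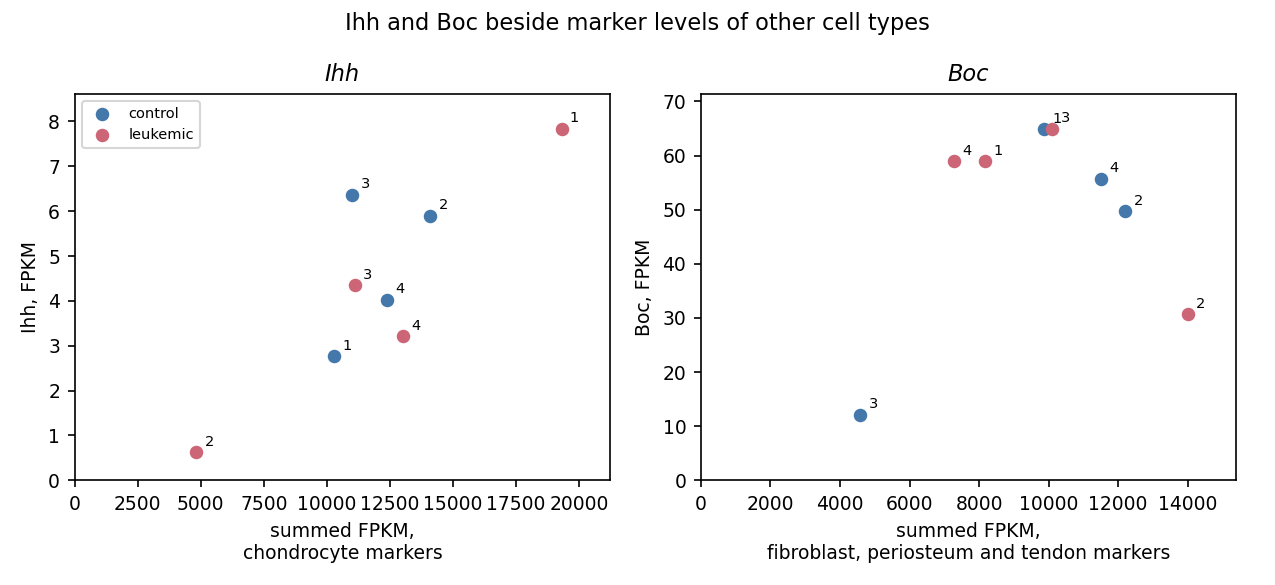
Left, Ihh (FPKM) against the summed FPKM of 12 chondrocyte markers; right, Boc (FPKM) against the summed FPKM of 9 fibroblast, periosteum and tendon markers, nearly all of it Dcn, 1 point per library with its replicate number. Leukemic library 2 is lowest and leukemic library 1 highest on both axes of the left panel, and control library 3 is lowest on both axes of the right panel.

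Ptch1, the receptor and a Gli target, had values of 13.49, 6.94, 8.79 and 7.53 FPKM in leukemic libraries 1 to 4, against 7.83, 15.65, 11.60 and 12.95 FPKM in controls 1 to 4. Of the leukemic values 3 of 4 lay under 9 FPKM, and of the control values 3 of 4 lay above 11 FPKM, but leukemic library 1 and control library 1 crossed over. The means were 9.19 ± 2.97 and 12.0 ± 3.25 FPKM (SD, n = 4 each), a log2 difference of -0.36 with a 95% interval from -0.92 to 0.21 (limma adjusted p = 0.719). It stayed negative without any single library, between -0.54 and -0.23, and was -0.21 with each library's trend over transcript length removed. Ptch1 followed Ihh across the 8 libraries, with Pearson r = 0.784 (exact permutation p = 0.0106) and Spearman rho = 0.81 (exact permutation p = 0.0218), and r = 0.767 without leukemic libraries 1 and 2, the 2 farthest from the median of Ihh. Neither passed after adjustment over the 36 pairs of the 9 genes (adjusted exact permutation p = 0.217 and 0.531), and both genes were measured in the same libraries.

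Boc, a co-receptor that binds the ligand together with Ptch1, had values of 58.99, 30.69, 64.98 and 58.93 FPKM in leukemic libraries 1 to 4, against 64.88, 49.68, 12.16 and 55.75 FPKM in controls 1 to 4. It lay between 49 and 65 FPKM in 6 libraries, with leukemic library 2 and above all control library 3 below them. Group means were 53.4 ± 15.4 and 45.6 ± 23.2 FPKM (SD, n = 4 each), and the log2 difference was 0.40 with a 95% interval from -0.65 to 1.45 (limma adjusted p = 0.845). Without control library 3 it was -0.13, so the sign rested on that library.

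Smo, the membrane protein that carries the signal, had values of 18.64, 16.99, 14.50 and 15.35 FPKM in leukemic libraries 1 to 4, against 19.01, 33.97, 14.62 and 16.97 FPKM in controls 1 to 4. The leukemic libraries lay within a narrow range, and apart from control library 2 the control libraries lay in nearly the same one. The log2 difference was -0.28 (95% interval -0.83 to 0.27, limma adjusted p = 0.771) and -0.04 without control library 2.

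Sufu, the cytoplasmic inhibitor that binds Gli proteins, had values of 6.06, 6.03, 6.09 and 8.60 FPKM in leukemic libraries 1 to 4, against 7.28, 7.31, 3.60 and 4.82 FPKM in controls 1 to 4. Leukemic libraries 1 to 3 were nearly equal, between 6.03 and 6.09 FPKM, and lay in the middle of the control range. The log2 difference was 0.22 (95% interval -0.31 to 0.74, limma adjusted p = 0.824), between 0.05 and 0.33 with any single library left out.

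Among the transcription factors, Gli3, the main source of Gli repressor, showed the smallest p of the 9 genes. It had values of 2.39, 2.93, 2.60 and 2.79 FPKM in leukemic libraries 1 to 4, against 2.96, 5.26, 4.12 and 5.62 FPKM in controls 1 to 4. All 4 leukemic libraries lay below all 4 controls, with a gap of 0.03 FPKM between leukemic library 2 and control library 1. Such separation in the lower direction was found in 1 of the 9 genes and in 2.9% of all genes tested. None of the 9 had all leukemic libraries above, against 0.954% of all genes tested.

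The Gli3 means, leukemic before control, were 2.68 ± 0.235 and 4.49 ± 1.2 FPKM (SD, n = 4 each), and the log2 difference was -0.55 (SE 0.21, 95% interval -1.01 to -0.09). The limma p was 0.0227 before and 0.695 after adjustment over all genes. The unadjusted limma p rose above 0.05 with the length trend removed (0.0694, difference -0.41) and with the replicate block added to that (0.0918). It did so too without leukemic library 1, control library 2 or control library 4, and without leukemic libraries 1 and 2 together. Across genes, the Spearman correlation of transcript length with the deviation of log2(FPKM + 1) from the mean of each gene was negative in leukemic libraries 1, 2 and 3 (-0.332, -0.313 and -0.101) and positive in leukemic library 4 (0.292) and in controls 1 to 4 (0.027, 0.124, 0.124 and 0.324). The difference stayed negative in each alternative run, from -0.73 to -0.41, and the adjusted p ran from 0.282 to 0.907. In the authors' deposited table the log2 ratio of leukemic over control for Gli3 was -0.642.

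Gli1, an activator and target, had values of 4.16, 1.96, 5.18 and 4.04 FPKM in leukemic libraries 1 to 4, against 2.74, 5.86, 2.43 and 3.27 FPKM in controls 1 to 4. Leukemic libraries 1, 3 and 4 lay above control libraries 1, 3 and 4, while library 2 of each group turned the order round. The log2 difference was 0.09 (95% interval -0.56 to 0.73, limma adjusted p = 0.958), turning to -0.05 without leukemic library 3, to -0.03 without control library 3 and to -0.02 with totals rescaled to TPM.

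Gli2, the main activator in response to the ligand, had values of 2.14, 1.54, 2.70 and 2.14 FPKM in leukemic libraries 1 to 4, against 2.22, 3.35, 0.43 and 2.57 FPKM in controls 1 to 4. Control library 3 lay far below the other 7, which spanned 1.54 to 3.35 FPKM. The log2 difference was 0.09 (95% interval -0.63 to 0.82, limma adjusted p = 0.958), and -0.25 without control library 3. The ratio of Gli1 to Gli3 FPKM was 1.74, 0.669, 1.99 and 1.45 in the leukemic libraries, against 0.926, 1.11, 0.59 and 0.582 in the controls. It was higher in 3 of 4 leukemic libraries than in any control, with leukemic library 2 inside the control range, and this ratio was chosen after its values were seen. The longest transcripts of Gli1 and Gli3 have 4057 and 8170 bases, and the ratio was not computed with the length trend removed.

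Hhip, a membrane-bound and secreted protein that captures Hedgehog ligands and is a Gli target, had values of 52.48, 18.31, 53.13 and 62.25 FPKM in leukemic libraries 1 to 4, against 48.03, 51.32, 20.21 and 53.24 FPKM in controls 1 to 4. Each group held 3 libraries at 48 FPKM or more and a single one near 20, leukemic library 2 and control library 3. The means were 46.5 ± 19.3 and 43.2 ± 15.5 FPKM (SD, n = 4 each), a log2 difference of 0.07 with a 95% interval from -0.85 to 0.98 (limma adjusted p = 0.98). The sign was negative without control library 3 (-0.26) and without leukemic library 1 (-0.04), 3 (-0.04) or 4 (-0.12). It was 0.45 without leukemic library 2.

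**Figure D3:**
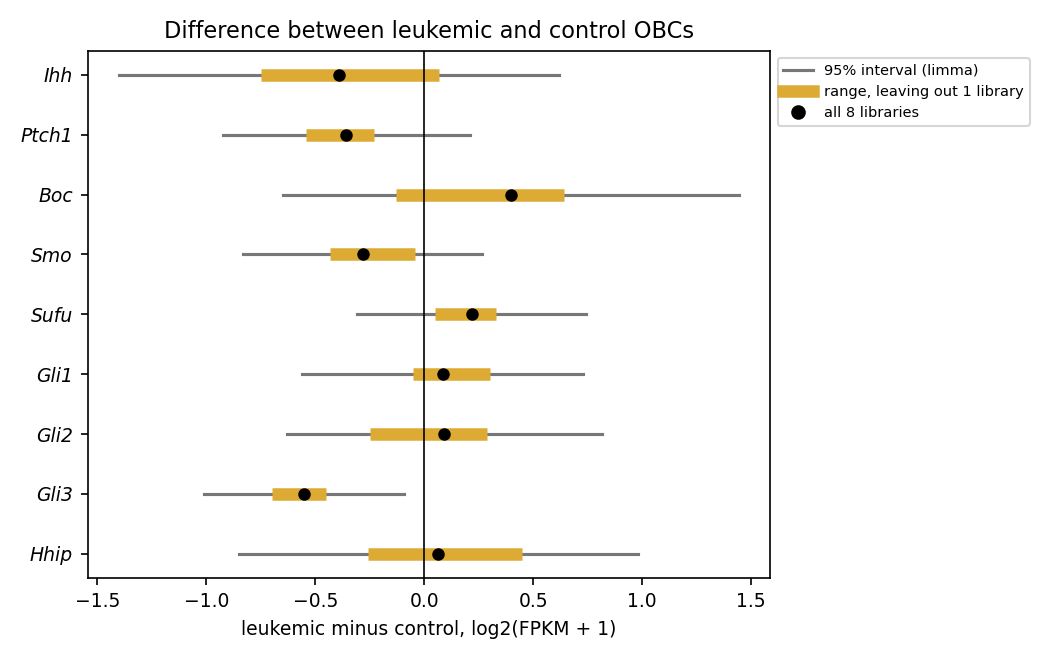
Leukemic minus control difference of each gene on the log2(FPKM + 1) scale (x axis), with the estimate from all 8 libraries, its 95% interval from limma, and the range of estimates when 1 library is left out. The intervals of 8 genes include 0, that of Gli3 runs from -1.01 to -0.09 before adjustment over genes, and the leave-out ranges of Ihh, Boc, Gli1, Gli2 and Hhip cross 0.

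Extreme values of the 9 genes gathered in a few libraries. How often each library was extreme over all genes was not counted, so the gathering is not given as a trait of these genes. Leukemic library 2 held the lowest of the 8 values in 4 genes (Ihh, Ptch1, Gli1 and Hhip) and control library 3 in 3 genes (Boc, Sufu and Gli2). Control library 2 held the highest in 4 genes (Ptch1, Smo, Gli1 and Gli2). Among the marker lists, leukemic library 2 was the lowest in 10 of 12 chondrocyte and 4 of 10 osteoblast markers. Control library 2 was the highest in 1 of the 12 and 0 of the 10. Leukemic library 2 was also the highest of the 8 in 6 of 7 B-lineage markers, with a summed level of 51.5 FPKM against 18.4 to 23.9 FPKM in the other leukemic libraries and 19.4 to 41.1 FPKM in controls, and in 3 of 4 erythroid markers. Most of that sum was Ebf1, which mesenchymal cells also express, at 37.38 FPKM in leukemic library 2 and higher still in control library 3 (39.90 FPKM). The B-cell precursor genes Vpreb1 and Igll1 stood at 4.33 and 4.12 FPKM in leukemic library 2, against at most 0.53 and 0.50 FPKM in controls. In leukemic libraries 1, 3 and 4, Vpreb1 stood at 3.06, 1.21 and 0.26 FPKM and Igll1 at 1.31, 0.48 and 0.27 FPKM. Cd79a, of the B-cell receptor, stood at 4.03 FPKM in leukemic library 2, against at most 1.33 FPKM in controls. It stood at 1.83, 1.32 and 0.66 FPKM in leukemic libraries 1, 3 and 4. Pax5 stood at 0.12 FPKM in leukemic library 2 and was listed at 0 in the other 7 libraries. Control library 3 was the highest in 6 of 10 osteoblast markers and the lowest in 6 of 7 Schwann cell markers. Of 7 perivascular and marrow stroma markers it was the highest in 3 and the lowest in 2. Their summed level there was 4170 FPKM, against 1200 to 3360 FPKM in the other controls and 1280 to 3000 FPKM in leukemic libraries. The part of these cells in the levels was not tested. Boc and Gli2 varied together over the 8 libraries (Pearson r = 0.905, exact permutation p = 0.0161; Spearman rho = 0.491, exact permutation p = 0.222), as did Boc and Hhip (r = 0.857, exact permutation p = 0.0283; rho = 0.5, exact permutation p = 0.216). Without control library 3 and leukemic library 2 these r values were -0.637 and -0.0894, so both relations rested on those libraries. Gli2 and Hhip had r = 0.782 (exact permutation p = 0.0305) and rho = 0.443 (exact permutation p = 0.275). Without control libraries 2 and 3, the 2 farthest from the median of Gli2, r was 0.818. Leukemic library 2, the lowest in Hhip (18.31 FPKM), stayed in that value. Whether this relation too rested on control library 3 and leukemic library 2 was not tested. Of the 36 pairs 0 passed adjustment over the pairs, and the lowest adjusted exact permutation p was 0.217.

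**Figure D4:**
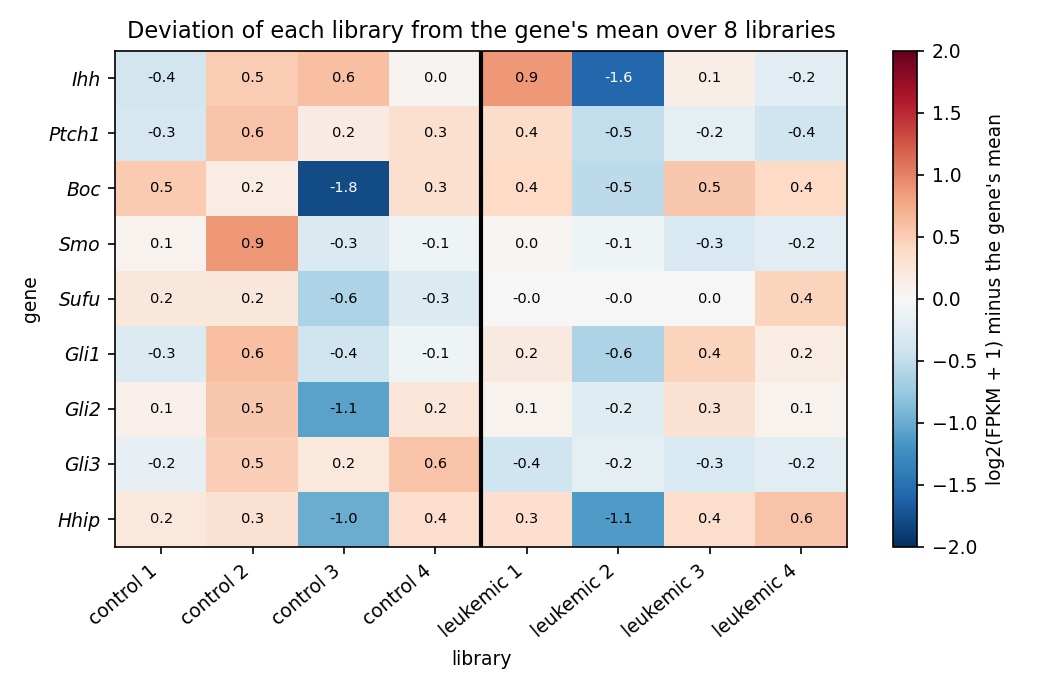
Log2(FPKM + 1) of each gene (rows) in each library (columns) minus the gene's mean over the 8 libraries, with the rounded value in each cell and the color scale from -2 (blue) to 2 (red). The darkest cells are Boc in control library 3 (-1.79) and Ihh in leukemic library 2 (-1.58), and the Gli3 row is negative in all 4 leukemic libraries.

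Control library 3, with the lowest Boc, Sufu and Gli2, was the lowest of the 8 in 5 of 9 fibroblast, periosteum and tendon markers, among them Dcn, the proteoglycan decorin, at 4392 FPKM against 6569 to 13550 FPKM in the other 7 libraries. Others went the other way, since Pdgfra (29.54 FPKM) and Ly6a (1.73 FPKM) were higher there than in the other controls. The summed FPKM of the list, nearly all of it Dcn, was 4590 in control library 3, 9870 to 12200 in the other control libraries and 7270 to 14000 in the leukemic libraries. None of the 9 markers was at 0 in any library. Their part in the levels of Boc, Sufu, Gli2 and Hhip was not tested. Markers of endothelial cells summed to 0.08 to 1.66 FPKM over the 8 libraries, with Kdr, the main receptor for VEGF, listed at 0 in 6 of them.

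The genes most like Gli1, Ptch1, Hhip and Ihh over the 8 libraries were found by Pearson correlation of log2(FPKM + 1) among genes with a mean of at least 5 FPKM (7107 for Gli1 and Ihh, 7106 for the others). They are given as a description, since the highest of so many values is high by selection. For Ptch1 they were Slc35e3 (r = 0.978), Col10a1 (0.94), the collagen of hypertrophic chondrocytes, and Sema3d (0.921), a secreted semaphorin. For Ihh they were Haus8 (0.969), a subunit of the augmin complex, Pla2g5 (0.952), a secreted phospholipase, and Rtl3 (0.935). Hhip was most like Meltf (0.983), an iron-binding membrane protein, Cyp3a13 (0.965) and P2rx6 (0.961). In control library 3, where Hhip stood at 20.21 FPKM, Meltf stood at 78.06 FPKM (mean of the 8 libraries 178). There Cyp3a13 stood at 3.63 FPKM (mean 8.78) and P2rx6 at 3.12 FPKM (mean 7.24). How far these r values rested on control library 3 and leukemic library 2 was not tested. Genes most like Gli1 included Vmac (0.95) and Dtx3 (0.91).

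Other genes of the pathway were taken from lists of ligands, ligand processing, receptors, signal transducers, Gli degradation, the cilium and target genes. Of 85 such genes, 83 were in the table and 61 were tested, and 0 passed in either direction. The log2 difference was negative in 43 of the 61 (70.5%, against 53.6% of all genes tested), with a median of -0.08 against -0.03 for all genes tested. At an unadjusted limma p of 0.05, 3 of the 61 were lower and 1 was higher, 6.56% together against 6.62% of all genes tested. All leukemic libraries lay below all controls in 3 of the 61 (4.92%, against 2.9% of all genes tested), and these were Kif7, Fbxw11 and Bmp4.

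The other ligands were near the floor of the table. Shh was listed at 0 in 7 libraries and at 0.01 FPKM in control library 2. Dhh, which Schwann cells make in peripheral nerve, ran from 0.52 to 0.74 FPKM in leukemic and from 0.55 to 1.00 FPKM in control libraries and was too low to be tested. Schwann cell markers were present beside it, with a summed FPKM of 84.9 to 116 in leukemic and 62.5 to 87.5 in control libraries. The largest part of that sum was S100b, at 34.78 to 55.52 FPKM over the 8 libraries, with a log2 difference of -0.04. Sox10 was too low to be tested, with means of 0.607 FPKM in leukemic and 0.98 FPKM in control libraries. Among the 6 tested, Mbp and Prx had all leukemic libraries above all controls, and none of the 6 passed the adjusted threshold. Ihh was the most abundant ligand in each of the 8 libraries, by the least in leukemic library 2, where it stood at 0.63 FPKM beside 0.52 FPKM of Dhh.

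Of the genes that modify and release the ligands, 4 of 6 in the table were tested, and 2 differences were positive and 2 negative. Hhat, the enzyme that attaches palmitate to the ligand, stood at 13.9 ± 3.78 FPKM in leukemic and 14.9 ± 5.74 FPKM in control libraries (SD, n = 4 each). Scube1 stood at 11.9 ± 4.12 and 12.4 ± 4.25 FPKM, and Scube2, which helps to release the ligand from producing cells, at 4.05 ± 1.59 and 3.07 ± 0.279 FPKM. Their limma adjusted p-values ran from 0.76 to 0.976.

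Of the other receptors and co-receptors, 3 of 6 were tested. Cdon, the relative of Boc, stood at 5.74 ± 0.973 FPKM in leukemic and 7.91 ± 3.68 FPKM in control libraries, and Gas1, a co-receptor anchored to the membrane, at 13.0 ± 8.5 and 13.2 ± 5.98 FPKM. Gpc3, a glypican that competes with Ptch1 for the ligand, stood at 9.7 ± 2.77 and 9.4 ± 4.33 FPKM. The co-receptor Boc exceeded Cdon and Gas1 in mean FPKM. Cdon, Gas1 and Gpc3 were, like Boc, lowest in control library 3, at 2.96, 6.31 and 3.32 FPKM.

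Of the ciliary and cytoplasmic transducers 20 of 23 were tested, with 16 negative differences, 4 positive and 0 passing. Kif7, a kinesin that organizes the tip of the cilium for Gli regulation, had values of 1.00, 0.73, 1.22 and 1.45 FPKM in leukemic libraries 1 to 4, against 1.88, 2.01, 1.94 and 2.11 FPKM in controls 1 to 4. All leukemic libraries lay below all controls, with a log2 difference of -0.52 (SE 0.18, limma adjusted p = 0.695). Grk2, a kinase that phosphorylates active Smo, had values of 3.57, 3.48, 5.69 and 3.71 FPKM in leukemic libraries 1 to 4, against 6.38, 7.65, 4.84 and 7.38 FPKM in controls 1 to 4, and the groups overlapped through library 3 of each (log2 difference -0.57, limma adjusted p = 0.695). The most abundant transducers were Gnas, the stimulatory G protein subunit (152 ± 31.0 against 183 ± 49.3 FPKM), and Prkar1a, a regulatory subunit of protein kinase A (113 ± 9.97 against 121 ± 15.4 FPKM), with limma adjusted p-values of 0.787 and 0.898.

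Of the 7 genes of Gli degradation, all tested, 5 differences were negative and 2 positive. Fbxw11, an F-box protein of the ligase that starts the processing of Gli3, had values of 13.09, 8.05, 11.81 and 12.29 FPKM in leukemic libraries 1 to 4, against 15.45, 14.96, 15.73 and 13.43 FPKM in controls 1 to 4, without overlap (log2 difference -0.39, limma adjusted p = 0.695). Spop, an adaptor that directs Gli proteins to degradation, stood at 71.7 ± 5.52 against 77.8 ± 12.3 FPKM, and its cullin partner Cul3 at 5.64 ± 2.16 against 7.61 ± 1.31 FPKM. Cul1, the scaffold of the ligase that holds Fbxw11, stood at 52.1 ± 6.03 against 46.9 ± 11.9 FPKM. None passed.

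Of the 15 cilium genes 14 were tested, 8 with positive and 6 with negative differences. Ift88, needed to build the cilium, had values of 4.20, 2.77, 5.12 and 3.97 FPKM in leukemic libraries 1 to 4, against 3.60, 2.49, 1.40 and 1.75 FPKM in controls 1 to 4 (log2 difference 0.62, SE 0.25, limma adjusted p = 0.695), with leukemic library 2 under control library 1. B9d1, of the ciliary transition zone, stood at 10.1 ± 3.82 against 5.85 ± 3.29 FPKM, and Bbs4, of the BBSome, at 13.1 ± 2.36 against 9.74 ± 1.99 FPKM (limma adjusted p = 0.695 each). With the length trend removed the log2 difference of B9d1 was 0.12, where it was 0.73 before. Arl13b, a ciliary GTPase, stood at 8.63 ± 1.62 against 7.84 ± 1.98 FPKM.

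Of the 25 target genes 13 were tested, with 12 negative differences, 1 positive and 0 passing. These genes answer to other signals too. Bmp4, a bone morphogenetic protein, had values of 21.34, 39.87, 29.19 and 22.96 FPKM in leukemic libraries 1 to 4, against 60.53, 45.48, 67.43 and 42.07 FPKM in controls 1 to 4, and all leukemic libraries lay below all controls. The means were 28.3 ± 8.4 and 53.9 ± 12.1 FPKM (SD, n = 4 each), and the log2 difference of -0.92 (SE 0.24) was the most negative of the 61 genes (limma adjusted p = 0.587). Mycn stood at 0.99 ± 0.606 against 1.72 ± 0.598 FPKM and Ccnd2, a cyclin, at 44.7 ± 7.14 against 50.8 ± 5.45 FPKM. Spp1, the matrix protein osteopontin and the most abundant of the list, ran from 19803 to 51897 FPKM in leukemic and from 19667 to 60684 FPKM in control libraries. Of the targets among the 9 genes, Gli1, Ptch1 and Hhip, the log2 differences were 0.09, -0.36 and 0.07.

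**Figure D5:**
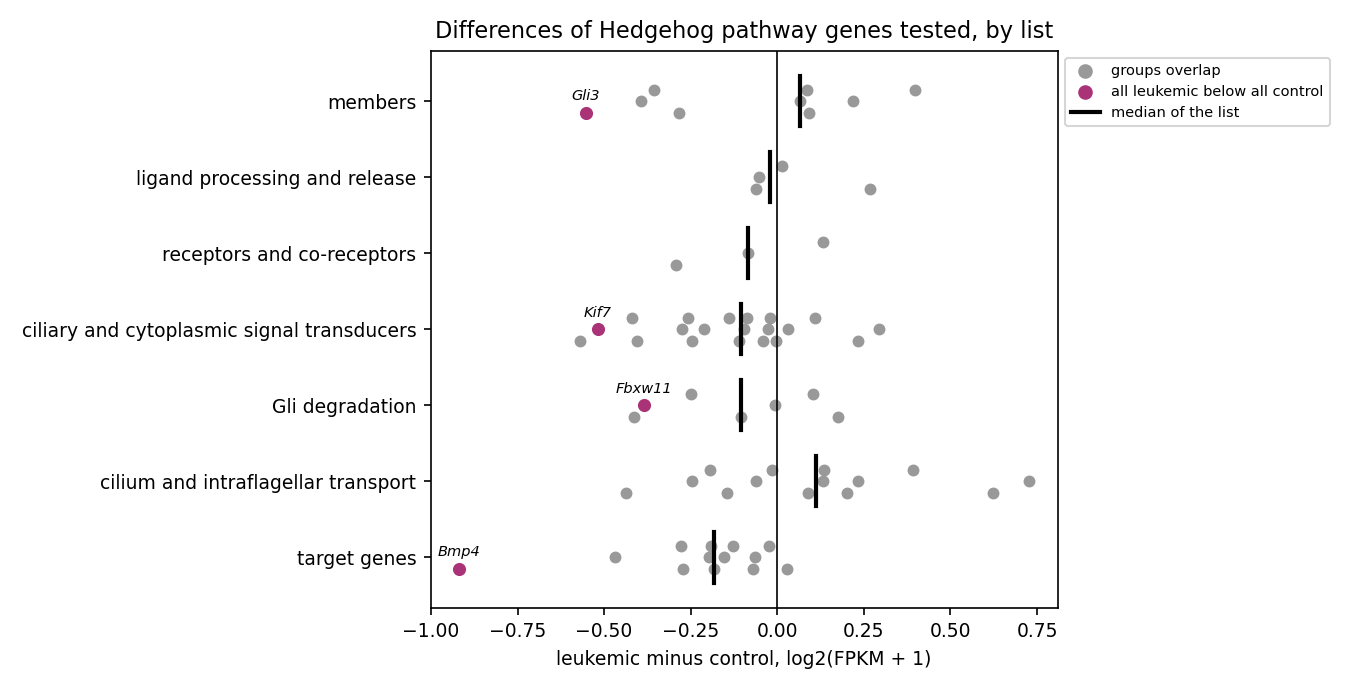
Leukemic minus control difference on the log2(FPKM + 1) scale (x axis) for the 9 genes described here (top row, members) and the other pathway genes tested, by list, 1 point per gene, with the median of each list as a black line. Gli3, Kif7, Fbxw11 and Bmp4, in purple, are the genes with all leukemic libraries below all control libraries, and the list medians lie between -0.18 and 0.11.

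The 9 genes lie apart in the genome except for Ihh with Gli2 on chromosome 1 and Ptch1 with Gli3 on chromosome 13. On GRCm38.p6, Gli3 (gene ID 14634) spans chromosome 13, 15463723 to 15730026, and Ptch1 (19206) spans 63508328 to 63573460 of the same chromosome. Ihh (16147) spans chromosome 1, 74945315 to 74951672, and Gli2 (14633) spans 118834061 to 119054405. Boc (117606) spans chromosome 16, 44485045 to 44558870, and Smo (319757) chromosome 6, 29735497 to 29761366. Sufu (24069) spans chromosome 19, 46396896 to 46488804, Gli1 (14632) chromosome 10, 127329882 to 127341579, and Hhip (15245) chromosome 8, 79965850 to 80058060. The library kit did not mark strand, so reads of overlapping genes could not be told apart. Of the exon bases of Gli1, 5.31% were shared with the antisense gene Gm47200 and 1.24% with Arhgap9, and of those of Gli3 and Hhip 1.96% and 1.93% with other annotated genes. The other 6 genes shared no exon base with another annotated gene of GENCODE M21.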

How the data were processed

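Libraries of RNA from sorted OBCs used SMART-Seq v4 chemistry for low input, which does not mark strand, per the labels' protocols. The tools HISAT2 2.0.4, Bowtie2 2.2.5, RSEM 1.2.8 and DESeq2 and the build GRCm38.p6 are named in the submitters' processing notes, without settings. The authors deposited FPKM values with 2 decimals for 17068 genes in 8 libraries, with group means and a log2 ratio of leukemic over control that the authors made by a method not given in the sources used here. Read depth is unknown: ratios of low FPKM values between libraries showed no steps of single reads (at most 2.42% of genes in a bin of the log2 ratio), so no counting interval is given. Between 10911 and 11162 genes per library reached 1 FPKM.

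Libraries were grouped by disease state in the labels. Values were analysed as log2(FPKM + 1), which understates the change of low genes, for the 11214 genes that reached 1 FPKM in 4 or more libraries. The group difference, leukemic minus control, was fitted with limma 3.58.1 (under R 4.3.3) using a mean-variance trend, two-sided, with Benjamini-Hochberg adjustment at 0.05 over all genes tested. The step was tested on simulated data with 200 changed genes. Single comparisons used exact permutation tests (Python 3.11.15, scipy 1.17.1). Positions and promoters came from RefSeq on GRCm38.p6 and transcript lengths from GENCODE M21 (99.3% of genes tested).

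The 9 genes and the gene lists were chosen with earlier results of these data known. Named were all 9 genes, the 2 most abundant and the 2 with the smallest p of each pathway list and any past the threshold, and the 3 genes most like each of 4 members, except for items that are not reported here. Marker examples and the ratio of Gli1 to Gli3 were chosen after their values were seen.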

Additional observations from a re-analysis of the deposited data

Results flagged for a closer look

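In 7 of 65 groups of 4 libraries checked among the genes named, 1 library lay far from the other 3 by Dixon's criterion for the gap over the group's range, and chance alone gives about 1 in 20. Hhip stood at 20.21 FPKM in control library 3, where the other controls ran from 48.03 to 53.24 FPKM. Sufu stood at 8.60 FPKM in leukemic library 4, against 6.03 to 6.09 FPKM in the other leukemic libraries. Leukemic library 4 was also apart in Dhh (0.74 FPKM, against 0.52 to 0.55 FPKM). Leukemic library 3 was apart in Grk2 (5.69 FPKM, against 3.48 to 3.71 FPKM) and in Scube2 (6.43 FPKM, against 3.14 to 3.34 FPKM). Spop stood at 96.25 FPKM in control library 4, against 70.82 to 72.17 FPKM in the other controls, and Shh at 0.01 FPKM in control library 2, with the other controls listed at 0.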

How the results depend on the processing

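In all 18 alternatives run, 0 of the 9 genes and 0 of the other pathway genes passed an adjusted p of 0.05 with limma, and the lowest adjusted p of the 9 was 0.282 (Gli3 without leukemic library 4). Genes called lower numbered 0 throughout. Genes called higher over the whole table numbered 1 without the low-value filter (Ntn5), 2 with TPM scaling, 3 with quantile normalization, 6 with array weights, 4 with the length trend removed, and 0 to 2 with 1 library left out; none was a pathway gene. Same-numbered libraries did not all deviate together from their group means (Pearson r = 0.122, -0.047, -0.072 and 0.22 across genes for numbers 1 to 4, which are not independent). Leukemic libraries 1 and 4 followed the control of their own number most. Leukemic library 2 followed control library 1 most (0.217), and leukemic library 3 followed control library 4 (0.129). These values do not settle whether the numbers are pairs, and they were not taken as such in the main fit. The replicate block called 0 genes, and 1 (Ccl19) together with the length trend removed; under the block Gli3 kept a difference of -0.55 (adjusted p = 0.517). TPM scaling moved the median of all genes from -0.03 to -0.15. The sign of Gli1 turned with TPM scaling (-0.02), as did that of Hhip (-0.07), which also turned with quantile normalization (-0.02). Relative to the median of all genes under TPM scaling, these were 0.13 and 0.08. With 1 library left out, values ran from -0.75 to 0.07 for Ihh, from -0.13 to 0.64 for Boc, from -0.05 to 0.30 for Gli1, from -0.25 to 0.29 for Gli2 and from -0.26 to 0.45 for Hhip. They ran from -0.45 to 0.16 for Gas1, from -0.25 to 0.33 for Gpc3, from -0.20 to 0.16 for Hhat, from -0.24 to 0.13 for Scube1 and from -0.31 to 0.32 for Spp1. Without leukemic libraries 1 and 2, Arl13b was -0.06, Gpc3 -0.04 and Scube1 0.30. With array weights Hhat was 0.04 and Spp1 0.05, and Scube1 was 0.05 with the length trend removed, with or without the block. The cause of these turns was not tested. With the length trend removed, Ptch1 moved from -0.36 to -0.21 and B9d1 from 0.73 to 0.12, and Gli3 at -0.41 no longer lay below an unadjusted limma p of 0.05. Ptch1, Smo, Sufu and Gli3 kept their sign in every alternative. With a filter of 5 FPKM, Ihh and the 3 Gli genes were not tested. Depth is not known, and with 4 libraries a group the precision is that of the 95% intervals given.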
